A study of Mus musculus with 9 samples.

Results

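The genes described here are 9 markers and transporters of the thick ascending limb and the distal convoluted tubule, found by name among the 55385 mouse genes of the deposited table. They were chosen by segment, with 4 genes of the thick limb (Umod, Slc12a1, Kcnj1 and Bsnd) and 5 of the distal convoluted tubule (Slc12a3, Pvalb, Egf, Trpm6 and Kcnj10), and each name matched 1 row. Kidney poly(A) RNA of 9 male C57BL/6J mice, 8 to 10 weeks old at the start, was sequenced with 1 library per mouse. Control mice had the labelled disease state control, and the study's methods name no agent given to them. HN mice received adenine (0.16 g/kg) with potassium oxonate (2.4 g/kg), a purine and an inhibitor of uricase, every other day for 4 weeks, which is a chemical model of hyperuricemic nephropathy in which adenine itself injures tubules. PEC mice received the same agents and, daily by mouth, the flavonoid pectolinarigenin at 25 mg/kg. Each group had 3 libraries, with the replicate numbers 2, 4 and 5 for Control, 4, 8 and 12 for HN and 1, 2 and 3 for PEC, out of 8 mice per group in the study. The libraries held 57714111 to 81069646 counts (median 74397038), and the 9 genes took between 0.546% and 0.646% of them.

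The thick ascending limb takes up sodium, potassium and chloride through the cotransporter encoded by Slc12a1, returns potassium to the lumen through the channel encoded by Kcnj1, and lets chloride leave on the blood side through channels that need the subunit encoded by Bsnd. The distal convoluted tubule that follows reabsorbs sodium and chloride through the thiazide-sensitive cotransporter (Slc12a3), and takes up magnesium through the channel encoded by Trpm6. Umod encodes uromodulin, the most abundant protein of normal urine, and Egf encodes the precursor of epidermal growth factor, a regulator of magnesium uptake.

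Levels are given as FPKM (fragments counted per kilobase of gene, relative to the library total) divided by the TMM factor of the library, a scaling factor that sets the bulk of genes level between libraries. This scaling matters here. The TMM factors were 0.778 to 0.832 in Control, 1.15 to 1.22 in HN and 1.02 to 1.05 in PEC libraries, and with library totals alone the median log2 fold change of all tested genes was 0.56 for HN against Control, -0.21 for PEC against HN and 0.40 for PEC against Control. Mitochondrial genes took 14.2 ± 1.82% of the counts in Control, 6.19 ± 0.164% in HN and 12.3 ± 1.77% in PEC libraries (SD, n = 3). Counts of calls are therefore given with totals alone too, as is the log2 fold change of any of the 9 genes whose call rested on the scaling. Calls required a fold change of 1.5 or more together with an adjusted p of 0.05 or less in edgeR's quasi-likelihood test, over 21392 genes tested, and SE stands for the standard error of a log2 fold change.

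The label of the tissue was checked against markers of its cells. In Control libraries the 4 thick limb genes summed to 1364, 1522 and 1460 TMM-scaled FPKM, and the 7 proximal tubule genes, led by Slc34a1, summed to 1794, 1847 and 2178. Genes of the principal cell (6, led by Aqp2), the intercalated cell (6, led by Atp6v1g3), the podocyte (5, led by Podxl) and the endothelium (4, led by Emcn) each summed to at least 29.8 in every library. Pvalb is also a gene of fast skeletal muscle. The 5 skeletal muscle genes examined summed to at most 1.46 in any library, with Mylpf the most abundant and 1 of the 5 without a count anywhere. In HN libraries they summed to 0.837, 0.482 and 0.850, above the levels of Pvalb there, 0.322, 0.208 and 0.376. Whether muscle RNA added to Pvalb was not tested. The 4 adrenal cortex genes, led by Star, summed to at most 1.24, and 1 of them had no count. The source label is kidney, but the labelled extraction notes speak of an adipose type. All 9 libraries held the kidney genes above, and 3 of them held more fat RNA than the rest, as described further on.

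**Figure D1:**
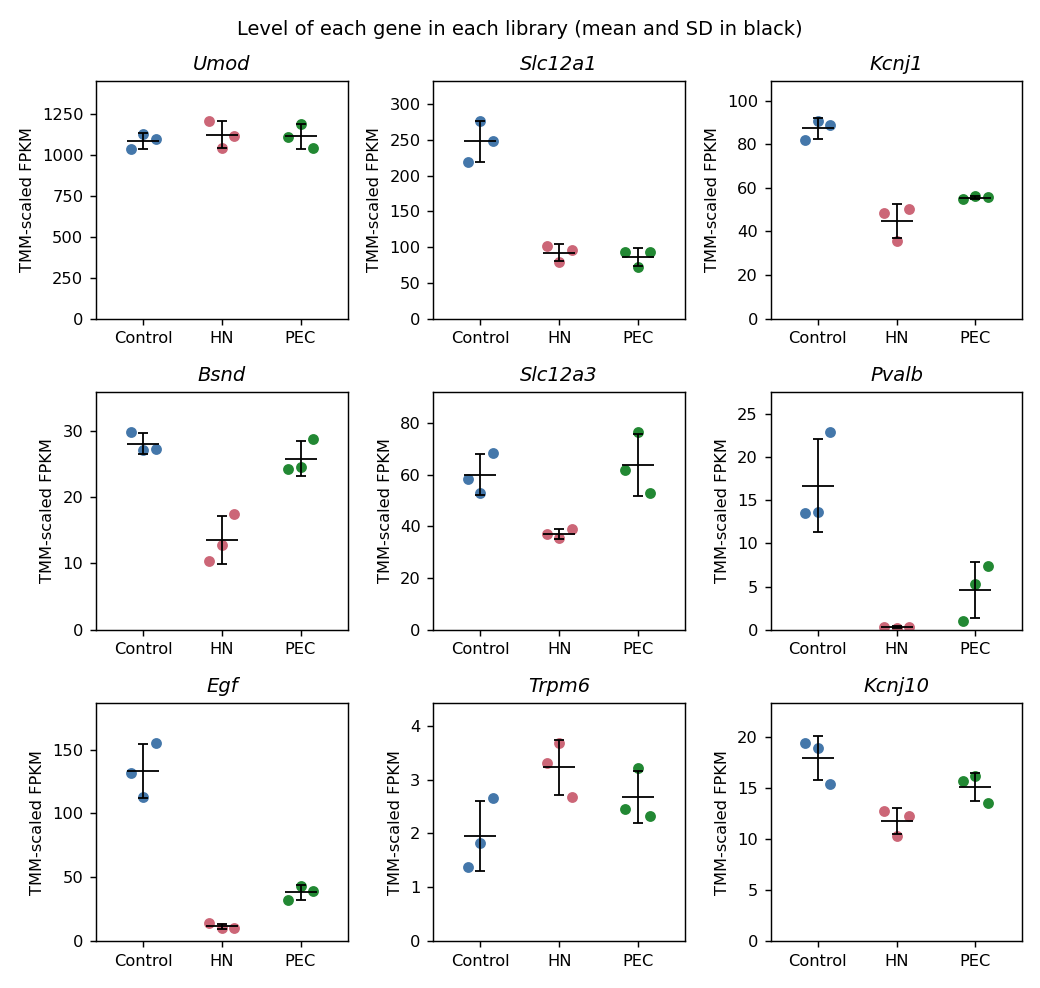
Level of each of the 9 genes in TMM-scaled FPKM (linear axes from 0) in the 3 libraries of each group, 1 point per library, with the group mean and SD in black. Umod lies between 1032 and 1207 in all 9 libraries, whereas Pvalb and Egf in the HN libraries lie under all those of Control and PEC mice.

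Against Control, 6 of the 9 genes were called lower in HN mice (Slc12a1, Kcnj1, Bsnd, Slc12a3, Pvalb and Egf), where 14.7% of all tested genes were, and 1 was called higher (Trpm6), where 17.7% were. Against HN, 4 of the 9 were called higher in PEC mice (Bsnd, Slc12a3, Pvalb and Egf), where 13.4% of all tested genes were, and 0 were called lower, where 15.3% were. Against Control, 4 of the 9 were called lower in PEC mice (Slc12a1, Kcnj1, Pvalb and Egf), where 17.4% of all tested genes were, and 0 were called higher, where 18.9% were. With totals alone, 3 were called lower in HN than in Control mice (Slc12a1, Pvalb and Egf), where 6.02% of all tested genes were, and 2 higher (Umod and Trpm6), where 36% were. On the same scale 4 were called higher in PEC than in HN mice, against 9.12% of all tested genes, and 0 lower, against 21.6%. PEC against Control then gave 2 lower (Slc12a1 and Egf), against 9.17%, and 1 higher (Trpm6), against 30%. For PEC lower than HN, the count was 0 of 9 in edgeR, DESeq2 and limma and also 0 at an unadjusted p of at most 0.05. For PEC higher than Control, it was 0 of 9 in edgeR, also at an unadjusted p of at most 0.05, and 0 in DESeq2, but 1 (Trpm6) in limma on log2(FPKM + 0.1). The HN libraries serve both of the first comparisons and the Control libraries serve the first and the last, so that their values are given side by side only.

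Umod (ENSMUSG00000030963) lies on the reverse strand of chromosome 7 of GRCm38 from 119462711 to 119479282. Its level was 1032, 1127 and 1096 in Control libraries, 1207, 1041 and 1114 in HN libraries, and 1109, 1188 and 1038 in PEC libraries. The 3 groups overlapped throughout, and Umod was the most abundant of the 9 genes in each group. The log2 fold change was 0.07 for HN against Control, with a 95% interval from -0.15 to 0.29 (adjusted p = 0.607, edgeR), and 0.01 for PEC against HN, with an interval from -0.21 to 0.22 (adjusted p = 0.965, edgeR). Without the TMM factors the picture differed, since the deposited FPKM was 845, 938 and 852 in Control libraries and 1385, 1253 and 1363 in HN libraries. With totals alone Umod was called higher in HN mice, with a log2 fold change of 0.63 (adjusted p = 0.000357, edgeR), close to the shift of 0.56 that the median gene showed on that scale, and it was called in limma too, at 0.60 on both log2(FPKM + 1) and log2(FPKM + 0.1).

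Slc12a1 (ENSMUSG00000027202, chromosome 2 from 125152505 to 125230002), the target of loop diuretics, was at 220, 277 and 249 in Control libraries, 102, 79.5 and 95.7 in HN libraries, and 93.5, 72.0 and 93.9 in PEC libraries. Every HN and PEC library lay under every Control library, and HN and PEC overlapped. The log2 fold change was -1.40 (SE 0.15, adjusted p = 8.63e-05, edgeR) for HN against Control and -1.48 (SE 0.15, adjusted p = 7.33e-05, edgeR) for PEC against Control. In whole kidney RNA, fewer cells of a type and less RNA per cell cannot be told apart. PEC against HN gave -0.08, with a 95% interval from -0.41 to 0.26 (adjusted p = 0.719, edgeR). The fall in HN mice kept its call with totals alone, with a log2 fold change of -0.85 (adjusted p = 0.00136, edgeR). Within each library, the ratio of Slc12a1 to Umod, which depends on no scaling, was 0.213, 0.246 and 0.227 in Control libraries, 0.0847, 0.0764 and 0.0859 in HN libraries, and 0.0843, 0.0606 and 0.0905 in PEC libraries. This ratio was chosen after the values were seen and was not tested.

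Kcnj1 (ENSMUSG00000041248, chromosome 9 from 32372493 to 32399186) was at 82.0, 90.8 and 88.8 in Control libraries, 48.4, 35.7 and 50.1 in HN libraries, and 54.7, 56.2 and 55.6 in PEC libraries. The 3 groups did not overlap, with PEC between HN and Control. HN against Control gave a log2 fold change of -0.94 (SE 0.12, adjusted p = 0.000283, edgeR), and PEC against Control gave -0.61 (SE 0.12, adjusted p = 0.00311, edgeR). PEC against HN gave 0.33 and was not called (adjusted p = 0.061, edgeR). With totals alone neither fall was called, at -0.38 (adjusted p = 0.0274, edgeR) and -0.25 (adjusted p = 0.119, edgeR). Nor were they called with totals without mitochondrial genes, at -0.51 and -0.28, or in limma, at -0.41 and -0.29 on log2(FPKM + 1) and -0.42 and -0.29 on log2(FPKM + 0.1). The fall in PEC mice was also under a fold of 1.5 without Control replicate 4, at -0.58, where the filter was a mean of 0.5 FPKM, at -0.55, and with transcript length and GC content removed, at -0.51.

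Bsnd (ENSMUSG00000025418, chromosome 4 from 106483456 to 106492283) was at 29.8, 27.1 and 27.2 in Control libraries, 10.4, 12.8 and 17.4 in HN libraries, and 24.2, 24.5 and 28.8 in PEC libraries. All HN libraries lay under all others, and PEC overlapped Control. The log2 fold change was -1.03 (SE 0.18, adjusted p = 0.00138, edgeR) for HN against Control, 0.95 (SE 0.18, adjusted p = 0.00285, edgeR) for PEC against HN, and -0.08 with a 95% interval from -0.47 to 0.32 (adjusted p = 0.743, edgeR) for PEC against Control. With totals alone, the fall in HN mice was not called, at -0.46 (adjusted p = 0.0705, edgeR), nor was it in limma, at -0.50 and -0.52 on log2(FPKM + 1) and log2(FPKM + 0.1). PEC against HN was still called with totals alone, at 0.74 (adjusted p = 0.0138, edgeR).

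Slc12a3 (ENSMUSG00000031766, chromosome 8 from 94329201 to 94366214), the target of thiazide diuretics, was at 58.5, 53.0 and 68.6 in Control libraries, 37.0, 35.4 and 39.0 in HN libraries, and 61.9, 76.6 and 53.0 in PEC libraries. The HN libraries were the lowest 3, and PEC overlapped Control. The log2 fold change was -0.67 (SE 0.14, adjusted p = 0.00406, edgeR) for HN against Control and 0.80 (SE 0.14, adjusted p = 0.00209, edgeR) for PEC against HN. The fall rested on the scaling, because the deposited FPKM was 47.9, 44.1 and 53.4 in Control libraries and 42.4, 42.5 and 47.8 in HN libraries, which overlap, and with totals alone the log2 fold change was -0.11 (adjusted p = 0.516, edgeR). The call was also lost with totals without mitochondrial genes, at -0.24, in both limma settings, at -0.13, and without Control replicate 5, at -0.57. The difference between PEC and HN was called with totals alone as well, at 0.60 (adjusted p = 0.0053, edgeR), but limma on log2(FPKM + 1), at 0.56 (adjusted p = 0.00655, limma), and on log2(FPKM + 0.1), at 0.57 (adjusted p = 0.00681, limma), was under a fold of 1.5.

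Pvalb (ENSMUSG00000005716, chromosome 15 from 78191114 to 78206400) encodes parvalbumin, a calcium-binding protein of the early distal convoluted tubule. Its level was 13.5, 13.7 and 22.9 in Control libraries, 0.322, 0.208 and 0.376 in HN libraries, and 1.03, 5.33 and 7.40 in PEC libraries. The counts behind these levels were 949, 973 and 1586 in Control libraries, 33, 24 and 40 in HN libraries, and 95, 412 and 528 in PEC libraries. The 3 groups did not overlap, and PEC replicate 1 lay closer to the HN libraries than the other 2 PEC libraries did. HN against Control gave a log2 fold change of -5.73 (SE 0.71, adjusted p = 0.000196, edgeR), which is 53.0-fold lower. PEC against HN gave 3.90 (SE 0.66, adjusted p = 0.00174, edgeR). With totals alone these were -5.16 and 3.70. Limma, which differs in tool and added constant and also uses no TMM factors, gave -4.87 and 3.04 on log2(FPKM + 0.1) and -3.38 and 1.85 on log2(FPKM + 1). PEC against Control gave -1.82 (SE 0.58, adjusted p = 0.0291, edgeR), and this call was lost without Control replicate 5, at -1.54 (adjusted p = 0.0897, edgeR), without PEC replicate 2, at -1.94 (adjusted p = 0.0585, edgeR), and with totals alone, at -1.46 (adjusted p = 0.0594, edgeR). It was lost as well with totals without mitochondrial genes, at -1.49 (adjusted p = 0.0566, edgeR), and in a fit of only the 2 groups compared, at -1.80 (adjusted p = 0.0563, edgeR). Without the library of each group with most fat RNA it was called, at -2.48.

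Egf (ENSMUSG00000028017, chromosome 3 from 129677565 to 129755316) was at 132, 113 and 155 in Control libraries, 13.8, 10.3 and 10.2 in HN libraries, and 31.9, 43.4 and 39.3 in PEC libraries. The 3 groups were apart from each other, in the order HN, PEC, Control. The log2 fold change was -3.52 (SE 0.18, adjusted p = 2.37e-06, edgeR) for HN against Control, 11.5-fold lower. It was 1.76 (SE 0.17, adjusted p = 0.000102, edgeR) for PEC against HN and -1.76 (SE 0.17, adjusted p = 5.13e-05, edgeR) for PEC against Control. These 3 calls held in every alternative run, with -2.90 for HN against Control in limma on log2(FPKM + 1). An antisense gene, Gm42697, overlaps Egf with 49 to 1188 counts per library, against 11736 to 116214 for Egf, and whether the authors' counting used strand is not given in the sources used here.

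Trpm6 (ENSMUSG00000024727, chromosome 19 from 18749983 to 18892511) had the lowest mean of the 9 genes in Control and PEC libraries, and was at 1.38, 1.82 and 2.65 in Control libraries, 3.31, 3.68 and 2.68 in HN libraries, and 2.46, 3.22 and 2.32 in PEC libraries. The HN libraries lay above those of Control by a small margin, and PEC overlapped both. HN against Control gave a log2 fold change of 0.75 (SE 0.23, adjusted p = 0.0279, edgeR), in the direction opposite to the other 6 called genes. This call was lost without Control replicate 2, at 0.56 (adjusted p = 0.078, edgeR), without Control replicate 4, at 0.71 (adjusted p = 0.083, edgeR), without HN replicate 4, at 0.74 (adjusted p = 0.0695, edgeR), without HN replicate 8, at 0.65 (adjusted p = 0.0933, edgeR), and without the library of each group with most fat RNA, at 0.67 (adjusted p = 0.0627, edgeR). PEC against Control, at 0.50 (adjusted p = 0.11, edgeR), was called without Control replicate 5, at 0.77 (adjusted p = 0.0152, edgeR), and with totals alone, at 0.86 (adjusted p = 0.00914, edgeR). It was also called with totals without mitochondrial genes, at 0.82, in limma on log2(FPKM + 0.1), at 0.81, and with length and GC content removed, at 0.81. PEC against HN gave -0.26 (adjusted p = 0.418, edgeR).

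Kcnj10 (ENSMUSG00000044708, chromosome 1 from 172341210 to 172374085) encodes a potassium channel of the basolateral membrane. It was at 19.4, 18.9 and 15.4 in Control libraries, 12.7, 10.3 and 12.2 in HN libraries, and 15.7, 16.1 and 13.5 in PEC libraries. HN lay under both other groups, and PEC overlapped Control. HN against Control gave a log2 fold change of -0.58 (adjusted p = 0.0043, edgeR), just short of a fold of 1.5, and was not called, but it passed without Control replicate 5, at -0.68, without HN replicate 4, at -0.64, without HN replicate 12, at -0.61, and without PEC replicate 3, at -0.59. With totals alone it was -0.03 (adjusted p = 0.866, edgeR). PEC against HN gave 0.38 (adjusted p = 0.0358, edgeR) and was not called, but with length and GC content removed both comparisons were called, at -0.68 and 0.64. Kcnj16 encodes the partner subunit of this channel, and its level was 166, 16.7 and 19.0 in Control libraries, 9.32, 9.18 and 8.48 in HN libraries, and 4.55, 5.42 and 67.1 in PEC libraries. Control replicate 2 and PEC replicate 3 stood far above the rest for Kcnj16, which was not called in any of the 3 comparisons. Each of these libraries held the most fat RNA of its group, as did HN replicate 12, where Kcnj16 was at 8.48.

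**Figure D2:**
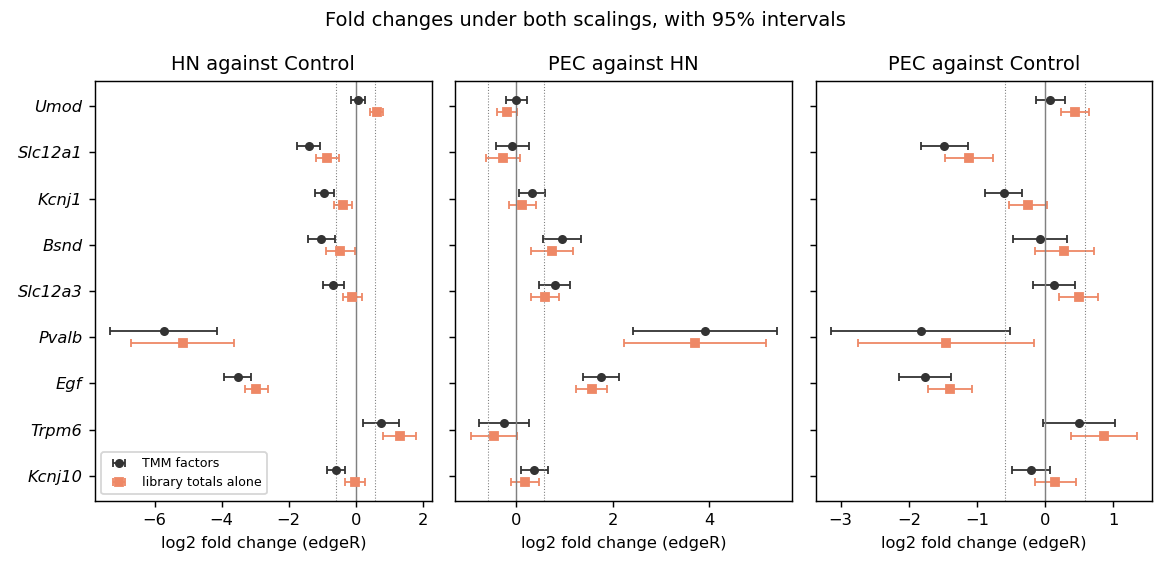
Log2 fold changes from edgeR of the 9 genes in the 3 comparisons, with TMM factors (circles) and with library totals alone (squares). Bars are 95% intervals and dotted lines mark a fold of 1.5. Squares lie to the right of the circles in HN against Control, so that Umod passes the line upward and Kcnj1, Bsnd and Slc12a3 no longer pass it downward, whereas Slc12a1, Pvalb and Egf stay below it.

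The order of levels also changed between groups. In Control libraries it was Umod, Slc12a1, Egf, Kcnj1, Slc12a3, Bsnd, Kcnj10, Pvalb and Trpm6, and of neighbours in this order Kcnj10 and Pvalb alone had overlapping libraries. In HN libraries Egf ranked 7 of 9 and Pvalb came last, and Kcnj1 overlapped Slc12a3, Bsnd overlapped Kcnj10, and Kcnj10 overlapped Egf. In PEC libraries Egf ranked 5, Slc12a3 ranked 3 with levels that overlapped those of both its neighbours, and Pvalb and Trpm6, the last 2, overlapped.

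Ratios of 2 genes within a library do not depend on how libraries are scaled. The ratio of Slc12a3 to Slc12a1, a single gene of each segment, was 0.266, 0.191 and 0.276 in Control libraries, 0.362, 0.444 and 0.408 in HN libraries, and 0.662, 1.06 and 0.564 in PEC libraries. The groups did not overlap, and the ratio was higher in HN than in Control and higher again in PEC libraries. The mean difference was 0.74 on the log2 scale for HN against Control, 0.87 for PEC against HN and 1.61 for PEC against Control. The GC content of the transcripts was 53.7% for Slc12a3 and 45.5% for Slc12a1, and PEC libraries differed in their trend with GC content, as given further on. The ratio was not taken with this trend removed. The 5 distal convoluted tubule genes, led by Egf, summed to 225, 200 and 265 TMM-scaled FPKM in Control libraries. In HN libraries they summed to 67.1, 59.8 and 64.6, and in PEC libraries to 113, 145 and 115. The 4 thick limb genes, led by Umod, summed to 1364, 1522 and 1460 in Control, and to 1368, 1169 and 1277 in HN libraries. In PEC libraries they summed to 1282, 1341 and 1216.5. The first sum thus fell against the second in HN libraries. This rests largely on Egf, with means of 133 in Control and 11.4 in HN libraries, and on Umod, with 1085 and 1121. The ratio of Slc12a3 to Slc12a1 above went the other way, so that the sums do not give 1 direction for the 2 segments.

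The ratio of Egf to Umod was 0.128, 0.1003 and 0.142 in Control libraries, 0.0114, 0.00985 and 0.00920 in HN libraries, and 0.0288, 0.0365 and 0.0378 in PEC libraries. The log2 difference was -3.59 for HN against Control, 1.76 for PEC against HN and -1.84 for PEC against Control. Trpm6 against Slc12a3 moved the other way, with differences of 1.45, -1.04 and 0.41, the last of which was 0.20 without Control replicate 2. Pvalb against Slc12a3, both of the distal convoluted tubule, differed by -5.10, 2.79 and -2.31, so that these 2 genes changed unequally. In PEC libraries this ratio was 0.0167, 0.0696 and 0.140, with replicate 1 the lowest. Without PEC replicate 1 the differences from HN and from Control were 3.64 and -1.46, and without PEC replicate 3 they were 2.11 and -2.99. Each of these 12 comparisons separated the libraries without overlap and gave p = 0.1 in the two-sided exact permutation test, also after Benjamini-Hochberg adjustment over the 12, which is the smallest p that 3 against 3 libraries allow.

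**Figure D3:**
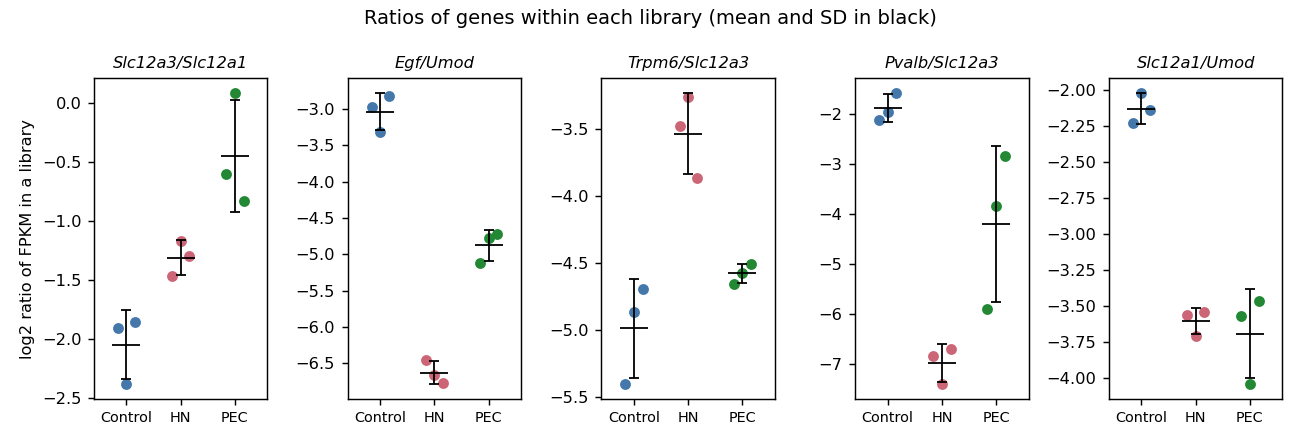
Log2 ratio of the FPKM of 2 genes in the same library, 1 point per library, with the mean and SD of each group in black (vertical axes differ between panels and do not start at 0). Slc12a3/Slc12a1 climbs from Control to HN to PEC, Egf/Umod and Pvalb/Slc12a3 are lowest in HN, and Slc12a1/Umod is alike in HN and PEC libraries.

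The lists of related genes that follow stand beside the same figures over all 21392 tested genes. Some genes, among them Irx1, Emx1 and Fxyd2, recur between these lists, so that the counts of the lists are not independent. Of these, 14.7% were called lower and 17.7% higher in HN than in Control mice, with a median log2 fold change of 0.00, and 6.02% and 36% with totals alone, with a median of 0.56. For PEC against HN, 15.3% were called lower and 13.4% higher, with a median of -0.02, and 21.6% and 9.12% with totals alone, with a median of -0.21. For PEC against Control, 17.4% were called lower and 18.9% higher, with a median of 0.04, and 9.17% and 30% with totals alone, with a median of 0.40.

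Of 14 further genes of the thick limb, 6 were called lower and 0 higher in HN than in Control mice (14.7% and 17.7% of all), with a median log2 fold change of -0.45. With totals alone 3 were called lower and 3 higher (6.02% and 36% of all), with a median of 0.10, so that the sign of the median rested on the scaling. Tmem207, a membrane protein gene, had the largest change, with -2.45 (adjusted p = 9.51e-06, edgeR), and its mean level was 8.20 in Control, 1.48 in HN and 4.03 in PEC libraries. Cldn10, a claudin of sodium-permeable tight junctions, fell by 1.24 on the log2 scale (adjusted p = 5e-05, edgeR). Cldn16, a claudin of calcium and magnesium reabsorption, was not called, at 0.56 (adjusted p = 0.0623, edgeR), but was called higher with totals alone, at 1.11. Between PEC and HN mice 5 were called higher and 1 lower (13.4% and 15.3% of all), with a median of 0.23, and with totals alone 4 higher and 1 lower (9.12% and 21.6% of all), with a median of 0.03. The 1 lower was Casr, the calcium-sensing receptor, with a mean of 10.99 in Control libraries, 8.18 in HN and 2.98 in PEC libraries and a log2 fold change of -1.44 (adjusted p = 0.00011, edgeR). For PEC against Control, 3 were called higher and 5 lower (18.9% and 17.4% of all), with a median of -0.50. With totals alone more were higher than lower, 4 against 3 (30% and 9.17% of all), with a median of -0.14.

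Of 10 further genes of the distal convoluted and connecting tubule, 4 were called lower and 1 higher in HN than in Control mice (14.7% and 17.7% of all), with a median of -1.16. With totals alone 2 were called in each direction (6.02% lower and 36% higher of all), with a median of -0.61. Klk1, the tissue kallikrein, had mean levels of 1581 in Control libraries, 495 in HN and 1538 in PEC libraries, with log2 fold changes of -1.65 (adjusted p = 1.56e-05, edgeR) for HN against Control and 1.66 (adjusted p = 4.47e-05, edgeR) for PEC against HN. Trpv5, an apical calcium channel, was the gene that rose, from a mean of 6.44 in Control to 19.9 in HN, and it was at 12.6 in PEC libraries (log2 fold changes of 1.65, adjusted p = 0.000277, and -0.65, adjusted p = 0.0359, edgeR). Calb1, a cytosolic calcium carrier, was not called for HN against Control, at -0.42 (adjusted p = 0.245, edgeR). Kcna1 had at most 29 counts in a library and was not called. PEC mice had 2 called higher and 1 lower than HN, near the shares of 13.4% and 15.3% over all tested genes, with a median of -0.31, and 2 higher and 4 lower with totals alone (9.12% and 21.6% of all), with a median of -0.51. For PEC against Control 1 was called higher and 3 lower (18.9% and 17.4% of all), with a median of -0.55, and 1 in each direction with totals alone (30% higher and 9.17% lower of all), with a median of -0.19.

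The WNK kinases and their partners set the activity of both sodium-chloride cotransporters by phosphorylation, which RNA levels do not show. Of 9 such genes 3 were called lower and 0 higher in HN mice (14.7% and 17.7% of all), with a median of -0.49, and with totals alone 1 in each direction (6.02% lower and 36% higher of all), with a median of 0.08. Klhl3, which targets WNK kinases for breakdown, was at 7.92 in Control, 2.89 in HN and 5.21 in PEC libraries, with -1.43 (adjusted p = 7.78e-06, edgeR) for HN against Control and 0.87 (adjusted p = 0.000211, edgeR) for PEC against HN. Wnk4 was at 38.0, 21.2 and 42.4, with -0.82 (adjusted p = 0.000162, edgeR) and 1.02 (adjusted p = 0.000104, edgeR), and its fall in HN mice was not called with totals alone, at -0.26. Cul3, the ubiquitin ligase scaffold that binds Klhl3, was called lower in HN mice, at -0.66 (adjusted p = 0.000263, edgeR), but not with totals alone, at -0.10. Sgk1, Stk39 and Nr3c2 were not called in HN mice, at -0.96, 0.12 and -0.13, but Stk39 was called higher with totals alone, at 0.68. Against HN, PEC mice had 2 called higher, Klhl3 and Wnk4, and 0 lower, with either scaling, of which the 2 of 9 are near the 13.4% called higher over all tested genes (15.3% were lower). Against Control, 0 were called higher and 1 lower with either scaling (18.9% and 17.4% of all). The medians were 0.06 and -0.31, and -0.15 and 0.05 with totals alone, so that the sign of both rested on the scaling.

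Among 9 genes of magnesium handling, 5 were called lower and 2 higher in HN than in Control mice (14.7% and 17.7% of all), with a median of -0.99, or 3 lower and 2 higher with totals alone (6.02% and 36% of all), with a median of -0.42. Trpm7, the close relative of Trpm6, was at 14.6 in Control, 9.53 in HN and 3.62 in PEC libraries, so that it was called lower in HN than in Control, at -0.59 (adjusted p = 0.0131, edgeR), and lower again in PEC than in HN mice, at -1.38 (adjusted p = 0.000218, edgeR). Its fall in HN mice was not called with totals alone, at -0.02. Fxyd2, a subunit of the sodium pump, was at 345, 131 and 318, and Pcbd1 at 280, 95.5 and 158. In PEC mice 3 were called higher and 1 lower than in HN (13.4% and 15.3% of all), with a median of 0.35, but with totals alone 1 higher and 2 lower (9.12% and 21.6% of all), with a median of 0.15. Against Control 1 was called higher and 3 lower (18.9% and 17.4% of all), with a median of -0.33, but with totals alone 2 higher and 1 lower (30% and 9.17% of all), with a median of 0.03, so that the balance of calls in both comparisons rested on the scaling.

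Of 10 tested EGF family ligands and receptors other than Egf (of 11 listed, Epgn being too low), 0 were called lower in HN than in Control mice and 4 were called higher (14.7% and 17.7% of all), with a median of 0.49, which was the same with Areg and Ereg at their lower bounds. With totals alone 0 were lower and 5 higher (6.02% and 36% of all), with a median of 1.04, and 0 were lower at an unadjusted p of at most 0.05, in DESeq2 and, of 8 tested there, in limma. Btc, a further ligand, had a mean of 1.88 in Control and 1.54 in HN libraries and was not called, at -0.27 (adjusted p = 0.424, edgeR). Areg had 0 counts in all 3 Control libraries and 52 to 74 in HN libraries, at least 14.7-fold higher against a floor of 3 counts in each Control library. Ereg had 0 counts in all 3 Control libraries and 58 to 195 in HN libraries, at least 30.5-fold higher by the same floor. Hbegf rose by a log2 fold change of 1.10 (adjusted p = 0.000265, edgeR), from a mean of 3.56 to 7.49, and was at 4.75 in PEC libraries. Egfr, the receptor of Egf, was at 7.11, 6.18 and 5.46, with -0.18 for HN against Control (adjusted p = 0.319, edgeR), and Erbb4 was not called in that comparison. PEC against HN had 0 called higher and 2 lower (Hbegf and Ereg), where 13.4% and 15.3% of all were, with a median of -0.33, and 0 higher and 4 lower with totals alone (9.12% and 21.6% of all), with a median of -0.53. For PEC against Control 2 were called higher and 1 lower (18.9% and 17.4% of all), with a median of 0.09, and 4 higher and 0 lower with totals alone (30% and 9.17% of all), with a median of 0.45.

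Of 11 transcription factors of the distal nephron, 5 were called lower and 0 higher in HN than in Control mice (14.7% and 17.7% of all), with a median of -0.30, but with totals alone 0 were lower and 1 higher (6.02% and 36% of all), with a median of 0.27, so that their direction rested on the scaling. Esrrb, Irx1 and Emx1 were among the 5, with -1.30, -1.13 and -1.12 (-0.76, -0.57 and -0.56 with totals alone), and Esrrg was called lower in PEC than in HN mice, at -1.06 (adjusted p = 0.00246, edgeR). PEC mice had 1 called higher and 1 lower than HN (13.4% and 15.3% of all), with a median of -0.03, and 0 higher and 2 lower with totals alone (9.12% and 21.6% of all), with a median of -0.23. For PEC against Control 0 were called higher and 6 lower (18.9% and 17.4% of all), with a median of -0.62, but 1 higher and 2 lower with totals alone (30% and 9.17% of all), with a median of -0.26.

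**Figure D4:**
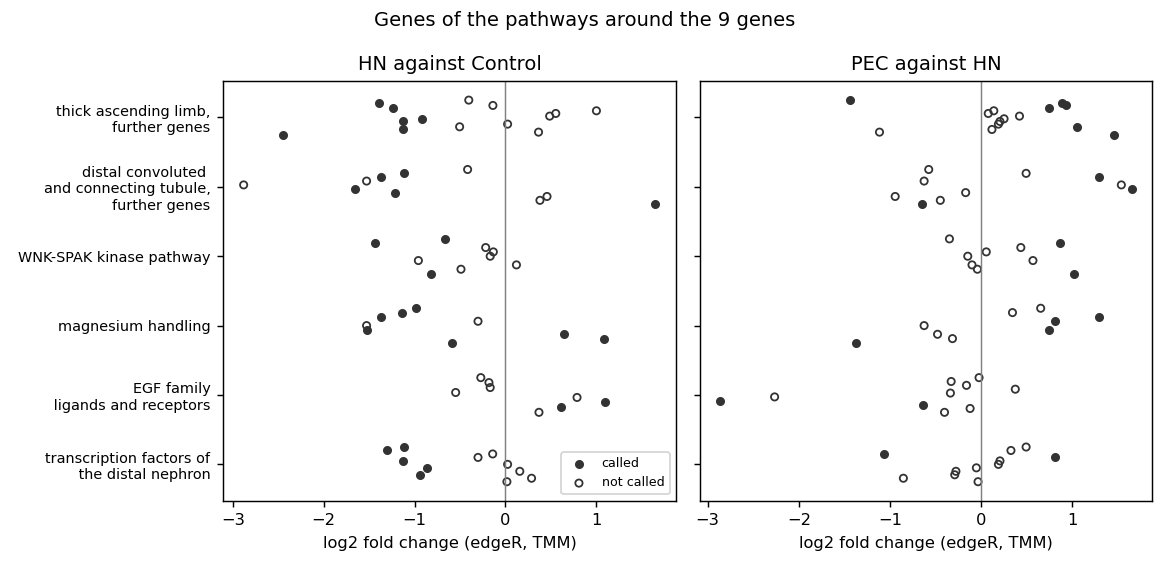
Log2 fold change from edgeR with TMM factors of each tested gene of 6 lists, for HN against Control (left) and PEC against HN (right). Filled points were called and open points were not, and the vertical place within a list only separates points. Areg and Ereg, without a count in Control libraries, are left out on the left. In the left panel most called genes lie below 0, with Trpv5, Slc41a1, Slc41a3, Hbegf and Nrg1 above it, and the direction of several lists rested on the scaling.

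The promoters of members that moved apart are shown here for Umod, Slc12a3, Pvalb and Egf. With TMM factors Umod was not called, and the others were called lower in HN than in Control mice and higher in PEC than in HN mice. The fall of Slc12a3 in HN mice rested on the scaling. RefSeq windows of 300 bases on GRCm38.p6, from 250 before to 50 after a gene's start, were found for 8 of the 9 genes, with 10 windows in all and none for Bsnd. Searched on both strands were a short site of nuclear receptors (AAGGTCA, in 4.72% of the 32851 windows of all genes) and the TATA box (TATAAA, in 13.6%), and capitals mark a match. The Slc12a3 window had 1 TATA box, and the other windows, those of Umod, Pvalb and Egf included, had none of these letters. The windows shown lie at chr7:119479213-119479512 (reverse strand, Umod), chr8:94328958-94329257 (forward strand, Slc12a3), chr15:78206351-78206650 (reverse strand, Pvalb) and chr3:129755273-129755572 (reverse strand, Egf). Pvalb and Egf each had a further window, at chr15:78204188-78204487 and chr3:129725037-129725336, which is not shown.
Umod: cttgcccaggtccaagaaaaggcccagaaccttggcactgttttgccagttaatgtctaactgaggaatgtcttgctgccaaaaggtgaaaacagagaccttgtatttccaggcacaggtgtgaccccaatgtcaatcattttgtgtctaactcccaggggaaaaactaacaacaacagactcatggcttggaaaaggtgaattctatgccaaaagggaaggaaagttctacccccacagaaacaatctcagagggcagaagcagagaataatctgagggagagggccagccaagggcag
Slc12a3: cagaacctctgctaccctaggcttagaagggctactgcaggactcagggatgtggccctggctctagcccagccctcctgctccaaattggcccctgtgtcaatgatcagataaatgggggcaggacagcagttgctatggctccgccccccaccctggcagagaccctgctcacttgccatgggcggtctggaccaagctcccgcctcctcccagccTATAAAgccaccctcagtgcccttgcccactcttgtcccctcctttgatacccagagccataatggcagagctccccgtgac
Pvalb: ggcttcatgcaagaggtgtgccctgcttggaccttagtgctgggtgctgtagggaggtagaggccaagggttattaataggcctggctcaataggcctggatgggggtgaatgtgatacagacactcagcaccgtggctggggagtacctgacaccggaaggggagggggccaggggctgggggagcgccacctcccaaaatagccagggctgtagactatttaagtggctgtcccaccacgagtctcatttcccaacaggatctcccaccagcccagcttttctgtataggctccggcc
Egf: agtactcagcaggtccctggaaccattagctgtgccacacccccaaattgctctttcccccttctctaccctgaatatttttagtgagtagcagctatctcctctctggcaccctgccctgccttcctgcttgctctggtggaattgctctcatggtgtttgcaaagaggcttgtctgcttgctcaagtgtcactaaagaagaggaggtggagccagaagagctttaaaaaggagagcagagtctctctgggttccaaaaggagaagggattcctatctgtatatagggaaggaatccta

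Markers of other cells moved in the same libraries, and their counts stand beside the shares over all tested genes. For HN against Control 14.7% were called lower and 17.7% higher (6.02% and 36% with totals alone). For PEC against HN 15.3% were called lower and 13.4% higher (21.6% and 9.12% with totals alone). The 7 proximal tubule genes summed to 1794, 1847 and 2178 in Control libraries, 376, 364 and 371 in HN libraries, and 696, 897 and 503 in PEC libraries, and 6 of 7 were called lower in HN mice. The 5 macrophage genes, led by C1qa, summed to 41.1, 48.7 and 43.8 in Control libraries, 456, 517 and 399 in HN libraries, and 172, 196 and 279 in PEC libraries, with 5 of 5 called higher in HN mice. The 5 genes of injured tubules, led by Spp1, summed to between 459 and 521 in Control libraries, 8922 and 10393 in HN libraries and 6535 and 8166 in PEC libraries, with 5 of 5 called higher. The 5 fibroblast genes, led by Col3a1, and the 4 T cell genes, led by Cd3d, were called higher in HN mice in 5 of 5 and 4 of 4. Principal cell genes were called lower in 3 of 6, intercalated cell genes in 4 of 6, endothelial genes in 1 of 4 and podocyte genes in 0 of 5, with 1 podocyte gene higher. The endothelial and podocyte counts, of few genes, were near the shares over all tested genes. With totals alone, principal cell genes were called in 2 of 6 in each direction, intercalated cell genes in 1 of 6 in each direction, and 1 of 4 endothelial and 3 of 5 podocyte genes higher, so that the direction in the first 3 of these lists rested on the scaling. In PEC against HN mice, 4 of 7 proximal tubule, 3 of 6 principal cell, 5 of 6 intercalated cell, 1 of 4 endothelial and 0 of 5 podocyte genes were called higher and 0 lower, where 13.4% and 15.3% of all tested genes were. With totals alone 2 proximal tubule genes were called higher and 1 lower, 2 principal cell and 3 intercalated cell genes were higher, and 0 endothelial or podocyte genes were called. Macrophage genes were called lower in PEC than in HN mice in 4 of 5, fibroblast genes in 3 of 5, T cell genes in 1 of 4 and genes of injured tubules in 1 of 5, and with totals alone in 4, 3, 2 and 2. The counts for HN against Control of these 4 lists and of the proximal tubule were the same with totals alone. In PEC against Control mice, with either scaling, 7 of 7 proximal tubule genes were called lower, and 5 of 5 fibroblast, 5 of 5 macrophage, 4 of 4 T cell and 5 of 5 injured tubule genes were called higher, where 17.4% and 18.9% of all tested genes were (9.17% and 30% with totals alone). Principal cell genes were there called higher in 1 and lower in 2 of 6 (4 and 0 with totals alone), and intercalated cell genes in 0 and 1 of 6 (4 and 0). Podocyte genes were called higher in 1 and lower in 0 of 5 (2 and 0), and endothelial genes in 0 and 1 of 4 (1 and 1). Of the 5 skeletal muscle genes 2 were tested, with 1 called in each direction in HN against Control mice (1 higher and 0 lower with totals alone). Between PEC and HN mice 1 of these 2 was called higher and 0 lower with either scaling, and between PEC and Control mice 1 was called higher (2 with totals alone). Mylpf, with 34 to 99 counts per library, was called lower in HN than in Control mice, at -0.97 (adjusted p = 0.0419, edgeR), but not with totals alone, at -0.43. It was called 2.83-fold higher in PEC than in HN mice (adjusted p = 0.007, edgeR), where Pvalb was called higher too. Acta1, the other muscle gene tested, went the other way, at 4.55 (adjusted p = 0.0115, edgeR) for HN against Control and -0.64 (adjusted p = 0.611, edgeR) for PEC against HN. Ckm and Tnnt3, not tested, were at most 0.077 and 0.157 in PEC libraries, and Myh4 was at 0 there. Of the 4 adrenal cortex genes 1 was tested, and it was not called in HN against Control mice (higher with totals alone) or in PEC against HN mice, and was called higher in PEC than in Control mice with either scaling. The part of such shifts in cell make-up in the results above was not tested.

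Fat tissue RNA differed between single libraries. The 4 adipocyte genes, led by Cfd, summed to 17.5 in Control replicate 2, 38.4 in HN replicate 12 and 384 in PEC replicate 3, against at most 1.16 in the other 6 libraries, and 0 of 4 were called in any comparison. Without these 3 libraries, 6 of the 9 genes were called lower and 0 higher in HN than in Control mice, where 13.1% and 15% of 21545 tested genes were, and 4 were called higher in PEC than in HN mice, where 11.1% were. PEC libraries also differed in their trends with transcript length and GC content and in ribosomal RNA. The rank correlation across 21358 genes between transcript length and a library's deviation from the mean was -0.278, -0.242 and -0.251 in PEC libraries and 0.179 to 0.208 in HN libraries, where genes are not independent replicates. With GC content in place of length it was 0.188, 0.174 and 0.165 in PEC libraries. It was -0.067 to -0.0632 in HN and -0.183 to -0.0826 in Control libraries. Ribosomal RNA loci took 0.117%, 0.682% and 0.119% of the counts in PEC libraries and at most 0.00283% in the others. With length and GC content removed, 5 of the 9 genes were called higher and 0 lower in PEC than in HN mice, where 12.1% and 10.9% of all tested genes were.

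By the smallest root mean square difference of log2 levels over the 9 libraries, each gene set against its own mean, among 15476 genes compared, the genes most like Umod were Ywhae (0.05), Parva (0.05) and Ubap2l (0.06), and those most like Slc12a1 were Slco4c1 (0.11), Fdx1 (0.17) and Tmem229a (0.18). For Kcnj1 they were Gm10221, Cyfip2 and Pdhb (each 0.08), and for Bsnd Gm28424 (0.14), Cyp2j9 (0.15) and Epor (0.16). For Slc12a3 they were Defb1 (0.10), Pgam1-ps2 (0.10) and Hook2 (0.11), and for Kcnj10 Baiap2, Gprc5c and Gstt3 (each 0.08). They were C8a (0.34), Slc22a22 (0.34) and Fancd2os (0.35) for Egf and Gm9973 (0.50), Gm29012 (0.60) and Akr1c18 (0.79) for Pvalb. This difference grows with a gene's own change, and the SD of log2 CPM over the 9 libraries was 1.54 for Egf and 2.61 for Pvalb but 0.081 for Umod, so that its size is not compared between the 9 genes. For Trpm6 they were Ikzf1 (0.11), Klhl6 (0.16) and Sh3bp2 (0.16).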

How the data were processed

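The authors deposited 1 table with a whole-number count and an FPKM value per gene and library. The counts were deposited without normalization, and the authors' FPKM had been scaled by library totals (0.979 to 1.02 times the totals, as recovered from the table). The submitters' processing notes name Bowtie 0.12.2 and the builds mm8 and mm9, whereas the coordinates of the table are those of GRCm38, identical to GENCODE for 51954 of 55144 gene IDs found. Kcnj1 is among those that were not identical. Groups came from the labelled disease state and treatment. The titles of Control samples name HN mice, but their disease state is control. The labels give no dose of pectolinarigenin, which is taken from the study's methods and legends.

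Counts were tested with edgeR 4.0.16 in R 4.3.3 (TMM, filterByExpr, glmQLFit and glmQLFTest), in 1 fit of the 9 libraries without covariates, and adjusted by Benjamini-Hochberg over 21392 genes. Standard errors are the fold change over the root of F. The lowest count of any of the 9 genes was 24, for Pvalb, where counting error is large, and the lowest count among the other genes was 720, for Trpm6. Replicates were not duplicates of each other (chi-square per degree of freedom 62.8 to 212). Named are the 9 genes, of each list the 4 with the largest absolute fold change in HN against Control or PEC against HN, genes paired with a member by role, the most abundant gene of each marker list, and for each member the 3 genes most like it by root mean square difference of log2 CPM, at a mean CPM of at least 1. Other genes named were chosen after their values were seen. Some genes that the rule selects, and 1 gene list, are not reported here. The members and lists were chosen with earlier results of these data known. Alternatives were RLE factors, library totals with and without mitochondrial genes, DESeq2 1.42.0, limma 3.58.1 on log2(FPKM + 1) or log2(FPKM + 0.1), other filters and thresholds, only the groups compared, and each library left out. Removal of length and GC content, and leaving out the libraries with most adipocyte RNA, were chosen after the data had been seen. The tests were checked on simulated counts, where most 2-fold changes were not called at the adjusted p and a part of the 3-fold changes was not. A far smaller share of genes was changed there than was called in these data, which makes the adjusted p stricter. The share recovered there is therefore not that of these data. A gene that was not called may still have changed.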

Additional observations from a re-analysis of the deposited data

How the results depend on the processing

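The falls of Slc12a1, Pvalb and Egf in HN mice and the higher Pvalb and Egf in PEC than in HN mice kept their calls under all 23 alternatives. Counts that moved by over 1.5 times are given here, and the cause was not tested. For HN against Control, genes called higher and lower were 3777 and 3154, with totals alone 7707 and 1287, with totals without mitochondrial genes 6402 and 1574, and with log2(FPKM + 0.1) in limma 5906 and 1191. The lower count was 1024 with log2(FPKM + 1) in limma and 1902 at a fold of 2. Members called lower were 3 and higher 2 with totals alone and with both limma settings, and members called higher were 0 at a fold of 2, 0 without the libraries with most adipocyte RNA, and 0 to 1 with each library left out. For PEC against HN, genes called higher were 2875, and 1356 and 1683 in limma with pseudocounts of 1 and 0.1. At a fold of 2 they were 1771 higher and 1823 lower, with 2 members higher. For PEC against Control, genes called higher and lower were 4053 and 3731, with totals alone 6414 and 1962, and with totals without mitochondrial genes 6159 and 2089. Both of these settings called 1 member higher and 2 lower. The lower count was 1485 and 1919 in limma with pseudocounts of 1 and 0.1, and 2089 at a fold of 2. Members called higher were 1 with log2(FPKM + 0.1) and with length and GC removed, and 0 to 1 with each library left out.

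Over the log2 fold changes of the 9 genes, 543 values kept their direction and side of the threshold, 37 lost a call, 16 gained a call and 25, of small uncalled differences, changed sign. Umod in PEC against HN was -0.19 with totals alone, -0.095 with totals without mitochondrial genes, -0.21 in both limma settings, -0.023 without a filter and -0.17 with length and GC removed, and -0.051 to 0.073 with each library left out. With length and GC removed, PEC against HN was 0.26 for Slc12a1 and 0.14 for Trpm6, and PEC against Control was -0.12 for Umod. With each library left out, Slc12a1 in PEC against HN was -0.18 to 0.045 and Slc12a3 in PEC against Control -0.012 to 0.26. Bsnd in PEC against Control was 0.28 with totals alone, 0.25 with totals without mitochondrial genes, and 0.23 in both limma settings. Kcnj10 there was 0.15, 0.12, 0.11 and 0.12. The 4 tested ratios within libraries kept their direction with counts in place of FPKM and with each library left out, and no other alternative was run on them. No paired analysis was run, because each library came from a different mouse and the study assigned mice to groups at random.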
